A study of Mus musculus with 22 samples.

Results

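The genes described here are 44 mouse genes with known roles in mitosis and chromosome segregation, out of 55335 genes in the deposited expression table. They were chosen by gene symbol for their roles in published biology, and each was matched by its symbol in the table. They comprise mitotic kinases, spindle checkpoint genes, centromere and kinetochore genes, the chromosomal passenger complex, motors and other proteins of the spindle and of cytokinesis, anaphase regulators, condensin with topoisomerase, and cohesin. In the study, the histone variant H2A.Z was knocked down in B6D2F1 mouse embryos, and RNA was sequenced from pools of 15 whole embryos per library. KD zygotes were injected with about 10 pL of a mix of siRNAs against H2A.Z at 20 µM; the treatment of the control embryos is not stated for these libraries. Embryos were harvested as 2-cell embryos at 43 to 44 h after hCG (4 control and 3 KD libraries), as morulae at 78 h (4 control and 3 KD libraries) and as blastocysts at 94 h (4 control and 4 KD libraries). The study reported that KD reduced blastocyst formation. How embryos were chosen for the KD blastocyst libraries is not stated. Nothing in the labels says that libraries of a group come from separate cultures, so the p-values measure only the spread between these samples.

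H2A.Z is a histone H2A variant that is placed at promoters and at other sites in chromatin, and in mouse it is encoded by H2afz and H2afv. Mitotic genes are mostly transcribed late in the cell cycle, and the early embryo begins division on RNA stored in the oocyte before its own transcripts replace that store. In bulk samples, fewer cells of a type and less RNA per cell cannot be told apart.

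H2afz, the first of the genes that encode H2A.Z, was at 1244, 1236, 905 and 1178 FPKM in control 2-cell embryos 1, 2, 4 and 5, and at 415, 139 and 112 FPKM in KD 2-cell embryos 1, 2 and 4. In morulae it was at 1158, 1336, 1511 and 1421 FPKM in controls 1, 2, 7 and 8, against 30.3, 25.7 and 29.0 FPKM in KD 1, 2 and 6. In blastocysts it was at 2656, 2431, 1945 and 2055 FPKM in controls 1, 4, 5 and 6, against 64.2, 67.2, 53.2 and 57.6 FPKM in KD 1, 4, 5 and 6. Every KD library was below every control library at each of these stages. H2afz fell in morulae (limma log2 fold change −5.41, adjusted p 9.71e-08) and in blastocysts (−5.19, adjusted p 3.63e-08). In 2-cell embryos the log2 fold change was −2.53 (SE 0.38) and did not pass (limma adjusted p 0.544, lower in 3 of 3 KD libraries); it passed without KD 1 (adjusted p 0.000907), with a range of 0.000907 to 0.861 over the alternatives. H2afv, the other H2A.Z gene, went from a control mean of 110 FPKM to 88.9 FPKM in KD 2-cell embryos (−0.23, adjusted p 0.840). Its means were 101 FPKM in control and 11.3 FPKM in KD morulae (−2.93, adjusted p 2.93e-06), and 57.5 FPKM and 15.3 FPKM in blastocysts (−1.86, adjusted p 7.95e-05). All fold changes given here are differences of log2(value+1), a scale that understates changes of genes at low FPKM.

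All 44 genes were above 0 FPKM in every one of the 22 libraries, and all 44 passed the filter for testing in every comparison. Among control 2-cell embryos the group means ran from 2.05 FPKM for Fzr1, an activator of the anaphase-promoting complex, to 456 FPKM for Pttg1 (securin, the inhibitor of separase), with a median over the 44 genes of 26.7 FPKM. In control morulae the range was 1.57 FPKM for the condensin subunit Ncapd2 to 397 FPKM for Birc5 (survivin, of the passenger complex), with a median of 22.2 FPKM. In control blastocysts it was 1.18 FPKM for the separase gene Espl1 to 610.0 FPKM for Birc5, with a median of 16.7 FPKM. The highest means were those of Pttg1, Birc5 and Spc25 in 2-cell embryos, Birc5, Aurka and Cdc20 in morulae, and Birc5, Pttg1 and Aurka in blastocysts. Summed over the 44 genes, 2-cell embryos had 2458, 2513, 2907 and 2794 FPKM in controls and 2739, 2607 and 2659 FPKM in KD. Morulae had 2341, 2207, 2272 and 2461 FPKM in controls and 2082, 2077 and 2325 FPKM in KD. Blastocysts had 2449, 2759, 2302 and 2256 FPKM in controls and 2312, 2258, 2086 and 2229 FPKM in KD. At each stage the summed levels of control and KD libraries overlapped. Fzr1, Ncapd2 and Spc25, among other genes named for their place in a range or for a single library, were named after their values were seen.

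In 2-cell embryos the question was whether transcripts of these genes differed soon after the injection. No member passed. Levels of most members overlapped between control and KD libraries, and the control libraries themselves spread widely for several genes.

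With limma, 0 of 44 members rose and 0 fell in KD 2-cell embryos, where 0% of the 12160 tested genes rose and 0% fell. At an unadjusted p under 0.05 there were 3 members (Aurka, Fzr1 and Pttg1) and 701 genes in all, and the fit with robust eBayes without trend also gave 0 members. The smallest adjusted p of a member was 0.828. The libraries of control and KD did not overlap for 5 members (Pttg1, Fzr1, Prc1, Smc2 and Smc3), against 6.78% of all tested genes. Of the members, 18 had a positive and 26 a negative log2 fold change after scaling, with a median of −0.04 (all tested genes 0.0035). With FPKM as deposited 14 were higher and 30 lower, with a median of −0.11 (all tested genes −0.049). The median absolute log2 fold change was 0.152, against 0.168 over all tested genes. Some genes are counted under more than 1 role: Bub1 and Ttk as kinases and checkpoint genes, Aurkb and Aurkc as kinases and passenger genes. By role, the median was −0.32 for kinases (0 of 6 higher), −0.15 for the checkpoint (1 of 5), −0.061 for centromere and kinetochore (2 of 9), −0.087 for the passenger complex (2 of 5), 0.02 for spindle and cytokinesis (5 of 9, or 3 of 9 and −0.044 as deposited), −0.20 for anaphase regulators (2 of 4), −0.077 for condensin and topoisomerase (2 of 6) and 0.19 for cohesin (4 of 4). None of these genes passed.

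The kinase Aurka was at 69.0, 55.2, 130 and 131 FPKM in control 2-cell embryos 1, 2, 4 and 5, and at 50.1, 59.5 and 58.6 FPKM in KD 1, 2 and 4 (−0.61, limma adjusted p 0.828). Cdc20, the checkpoint's target and activator of the anaphase-promoting complex, was at 87.4, 79.7, 249 and 205 FPKM in controls and at 69.2, 77.9 and 127 FPKM in KD (−0.57, limma adjusted p 0.840). For both genes controls 4 and 5 were far above controls 1 and 2, and the KD libraries lay nearer the lower pair. Aurkb, Cdca8, Kif2c and Kif20a had the same split of controls, seen after the values were known. Among libraries with the lower replicate numbers (2 control and 2 KD), the Aurka means were 62.1 FPKM in control and 54.8 FPKM in KD, and among those with higher numbers (2 control and 1 KD) they were 130 FPKM and 58.6 FPKM. For Cdc20 the same means were 83.5 and 73.6 FPKM, then 227 and 127 FPKM. With low against high replicate numbers as a term neither passed (Aurka −0.50, limma adjusted p 0.663, range 0.555 to 1.00 over the alternatives; Cdc20 −0.38, 0.663, range 0.579 to 1.00), and 0 members passed with replicate number as a block. Pttg1 had the reverse order, with 387, 589, 480 and 366 FPKM in controls and 807, 702 and 627 FPKM in KD, so that 3 of 3 KD libraries were above every control (0.73, SE 0.20, limma adjusted p 0.828).

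In morulae the question was whether the members differed once H2afz transcripts were at their lowest share of control. Few members passed. Each of the calls was lost under some alternatives or without some libraries. As many members had a positive as a negative log2 fold change with median-of-ratios scaling, though this split moved with the scaling.

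One member rose in KD morulae (1 of 44) where 4.23% of the 10989 tested genes rose, and 2 fell where 9.04% fell. There were 0 DEGs among the members by limma, against 0.992% of tested genes as upregulated and 2.53% as downregulated DEGs; at an unadjusted p under 0.05 there were 13 members and 3352 genes in all, and robust eBayes without trend also gave 0 member DEGs. In all, 6.82% of members passed. With low against high replicate numbers as a term, 5 members rose (Anln, Aurkc, Cenpe, Rad21 and Smc4) and 5 fell (Bub3, Fzr1, Nuf2, Prc1 and Ttk), where 777 of the 10989 tested genes rose and 1261 fell. The libraries did not overlap for 13 members, against 29.6% of all tested genes. Of the members 22 were higher and 22 lower, with a median log2 fold change of −0.004 (all tested genes 0.0152), and the median absolute log2 fold change was 0.225 against 0.276. With FPKM as deposited 14 were higher and 30 lower (median −0.11, 0 rose and 5 fell), and with upper quartile scaling 25 were higher and 19 lower (median 0.052, 1 rose and 0 fell). Of the 10989 tested genes 281 rose and 1553 fell as deposited, and 584 rose and 818 fell with upper quartile scaling. As deposited, the median of all genes was −0.085 and 15.3% of the genes that passed rose, against 31.9% with median-of-ratios scaling. By role, the median was −0.089 for kinases (3 of 6 higher, or 1 of 6 as deposited), −0.18 for the checkpoint (1 of 5), 0.023 for centromere and kinetochore (5 of 9, or 2 of 9 and −0.094 as deposited), 0.19 for the passenger complex (5 of 5, or 3 of 5 as deposited) and −0.067 for spindle and cytokinesis (4 of 9, or 2 of 9 as deposited). It was −0.058 for anaphase regulators (0 of 4, or 2 of 4 and 0.0019 with upper quartile scaling), −0.089 for condensin and topoisomerase (2 of 6, or 3 of 6 with upper quartile scaling) and 0.33 for cohesin (4 of 4, with 0 that passed).

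The checkpoint kinase Ttk was at 6.06, 6.12, 5.54 and 5.59 FPKM in control morulae 1, 2, 7 and 8, and at 1.63, 3.34 and 3.52 FPKM in KD 1, 2 and 6. Nuf2, a subunit of the kinetochore complex that binds microtubules, was at 6.57, 4.91, 7.35 and 5.64 FPKM in controls and at 2.79, 1.96 and 4.19 FPKM in KD. Anln (anillin, of the cleavage furrow), named after its values were seen, was at 15.5, 10.7, 10.7 and 10.3 FPKM in controls and at 17.7, 19.1 and 14.2 FPKM in KD. The KD libraries lay below every control for Ttk and Nuf2, while for Anln KD 6 was below control 1. Ttk fell (log2 fold change −0.77, SE 0.21, limma adjusted p 0.0399, lower in 3 of 3 KD libraries). It passed under 7 of 14 alternatives (range 0.00679 to 0.149) and was lost without control 2 (0.0824), control 7 (0.0778), control 8 (0.0831), KD 1 (0.122) or KD 2 (0.0715). Nuf2 fell (−0.76, SE 0.22, limma adjusted p 0.0454, lower in 3 of 3) and passed under 6 of 14 alternatives (range 0.0134 to 0.182). It was lost without control 1 (0.0584), 2 (0.0557), 7 (0.105) or 8 (0.0865), or without KD 1 (0.137) or KD 2 (0.182). Anln rose (0.62, SE 0.16, limma adjusted p 0.0289, 2 of 3 KD libraries above every control) and passed under 6 of 14 alternatives (range 0.0173 to 0.133). It was lost without control 2 (0.0687), 7 (0.0715) or 8 (0.0700), or without KD 1 (0.0913) or KD 2 (0.133). The Anln call was also lost with replicate number as a block, with FPKM as deposited and without the filter on low FPKM. Without control 2, control 7, KD 1 or KD 2, 0 members rose and 0 fell; without control 8, 0 fell; and without KD 6, 1 member was a downregulated DEG. Calls over all genes also became fewer, from 465 rises and 993 falls to 294 and 747 without control 2, 259 and 651 without control 7, 268 and 587 without control 8, 164 and 415 without KD 1, and 140 and 411 without KD 2.

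None of the following genes passed in morulae. Plk1, the polo kinase, was at 42.6, 25.6, 22.1 and 30.6 FPKM in controls and at 16.5, 20.9 and 18.8 FPKM in KD (−0.51, limma adjusted p 0.113; 0.0470 with replicate number as a block, range 0.0470 to 0.324). Ndc80, the partner of Nuf2, was at 32.5, 31.3, 40.2 and 42.2 FPKM in controls and at 21.2, 24.2 and 26.1 FPKM in KD (−0.47, limma adjusted p 0.126). Both had every KD library below every control. The microtubule bundler Prc1 was also lower in 3 of 3 KD libraries, with 90.3, 88.1, 71.8 and 75.5 FPKM in controls and 57.0, 57.6 and 55.3 FPKM in KD (−0.39, limma adjusted p 0.0774). Bub3, a checkpoint gene named after its values were seen, was at 64.1, 78.0, 101 and 97.0 FPKM in controls and at 41.3, 41.4 and 60.0 FPKM in KD (−0.70, limma adjusted p 0.0785). It passed without control 1 (0.0196), without KD 6 (0.0456), with FPKM as deposited (0.0184) and with low against high numbers as a term (0.0174), with a range of 0.0174 to 0.260. The kinetochore motor Cenpe was higher in KD (0.57, limma adjusted p 0.0633) but control 8 lay above KD 6. It passed without control 8 (0.0372), with replicate number as a block (0.0112) and with low against high numbers as a term (0.0475), with a range of 0.0112 to 0.237. With the block, only morula libraries 1 and 2 of each group bear on the KD effect. Aurkc, the germline Aurora kinase, was at 18.9, 24.5, 22.0 and 23.9 FPKM in controls and at 24.3, 35.3 and 33.5 FPKM in KD (0.57, limma adjusted p 0.0885). The condensin core gene Smc4 was at 39.8, 37.4, 42.6 and 39.1 FPKM in controls and at 45.2, 48.7 and 52.9 FPKM in KD, higher in 3 of 3 (0.41, limma adjusted p 0.0894).

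The other fixed representatives did not pass in morulae either, with limma log2 fold changes between −0.22 for the centromeric histone Cenpa (adjusted p 0.373) and 0.42 for the cohesin kleisin Rad21 (adjusted p 0.0962). Top2a, the topoisomerase of chromosome decatenation, was at 21.9, 18.6, 21.9 and 21.4 FPKM in controls and 16.2, 20.7 and 20.1 FPKM in KD (−0.02, adjusted p 0.950). Aurka was at 362, 311, 305 and 393 FPKM in controls and at 279, 313 and 350.0 FPKM in KD (0.0017, adjusted p 0.995). Control and KD libraries of both genes overlapped.

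Other genes of the same pathways, 95 in all, were tested beside the members: in KD morulae 5 rose and 10 fell of 87 tested (17.2%), where 4.23% of all tested genes rose and 9.04% fell. With FPKM as deposited 2 rose and 15 fell (281 and 1553 of all 10989 tested genes), and with upper quartile scaling 6 rose and 7 fell (584 and 818 of all). Cdc26, a subunit of the anaphase-promoting complex, was at 26.4, 27.5, 31.7 and 34.7 FPKM in control morulae and at 7.20, 7.39 and 6.75 FPKM in KD. Cenpk, of the inner kinetochore, was at 23.3, 29.8, 26.4 and 29.1 FPKM in controls and at 9.59, 10.4 and 2.68 FPKM in KD. Dlgap5, a spindle protein, was at 4.84, 3.98, 4.81 and 4.33 FPKM in controls and at 1.36, 1.75 and 2.43 FPKM in KD. For each of these genes every KD library was below every control. Cdc26 fell (−1.81, limma adjusted p 0.000625) and passed under all 14 alternatives (range 1.16e-08 to 0.0190). Cenpk fell (−1.77, limma adjusted p 0.0102) and passed under 13 of 14 (range 9.3e-05 to 0.0912), with 0.0912 without the filter on low FPKM. Dlgap5 fell (−0.86, limma adjusted p 0.0134; range 0.00595 to 0.0608), not passing without KD 1 (0.0586), KD 2 (0.0552) or the filter on low FPKM (0.0608). The kinesin Kif20b rose from a mean of 25.5 to 38.7 FPKM (0.70, limma adjusted p 0.0239, 3 of 3 KD libraries above every control; range 0.00218 to 0.112), not passing without control 2 (0.0583), KD 1 (0.0534), KD 2 (0.112) or the filter on low FPKM (0.0866). The kinetochore genes Knl1 (0.58, limma adjusted p 0.0460; range 0.0369 to 0.188) and Cenpm (0.57, limma adjusted p 0.0429; range 0.0343 to 0.185) rose with 3 of 3 KD libraries above every control. Each passed under 4 of 14 alternatives: Knl1 was lost without any 1 of the 7 libraries, and Cenpm without any 1 except control 2.

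In blastocysts the question was the same, with 4 KD libraries in place of 3. More members passed than in morulae, in both directions. Members with kinase and kinetochore roles were among those that rose and among those that fell.

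In KD blastocysts 5 of 44 members rose where 16.7% of the 11828 tested genes rose, and 6 fell where 19.8% fell. Thus 25.0% of members passed. There was 1 upregulated DEG (Kif23), against 6.06% of tested genes, and there were 2 downregulated DEGs (Nuf2 and Ttk), against 7.69%. The libraries did not overlap for 12 members, against 34.5% of all tested genes. The members split into 21 higher and 23 lower, with a median log2 fold change of −0.021 (all tested genes 0.0047) and a median absolute log2 fold change of 0.300 (all tested genes 0.397). By role, 5 of 5 checkpoint genes were lower (median −0.36, with 2 that fell) under each scaling. Of 9 centromere and kinetochore genes 6 were lower (median −0.30, 1 rose and 3 fell), and of 6 condensin and topoisomerase genes 4 were lower (median −0.24, 1 fell). Of 9 spindle and cytokinesis genes 6 were higher (median 0.094, 1 rose), as were 3 of 4 anaphase regulators (median 0.27, 1 rose). The 6 kinases divided into 3 higher and 3 lower (median 0.14, 2 rose and 2 fell), the passenger complex into 3 higher and 2 lower (median 0.038, 1 rose) and cohesin into 2 and 2 (median 0.075). The number that rose was 3 without control 1, 2 without control 6, and 3 without KD 1, KD 4 or KD 6, and only 1 member was a downregulated DEG without control 6 or without KD 1. Over all genes the number that rose went from 1977 to 1618 without control 1, 1644 without control 6, 1628 without KD 1, 1876 without KD 4 and 1494 without KD 6.

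**Figure D1:**
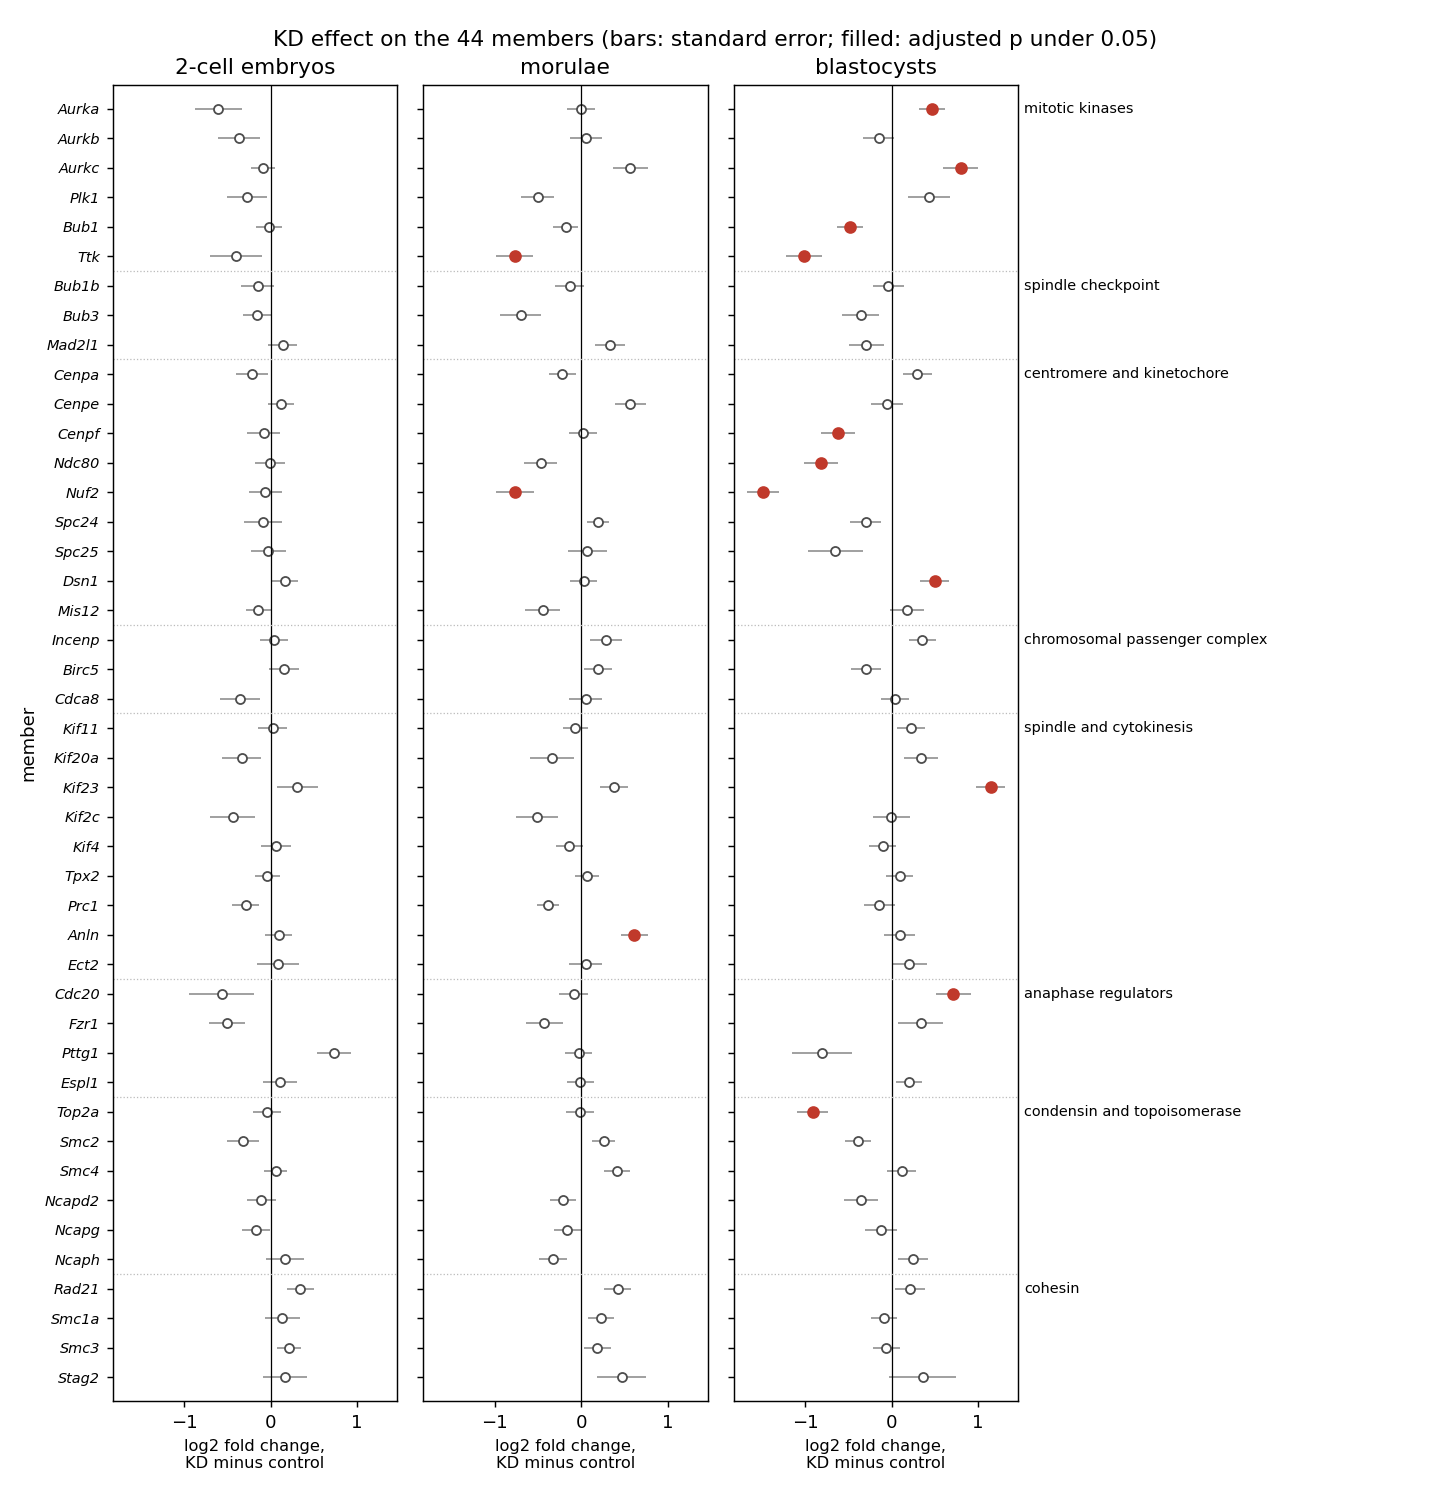
Log2 fold change (KD minus control, on log2(FPKM+1)) of each of the 44 members in 2-cell embryos, morulae and blastocysts; bars are the standard error and filled points have a limma adjusted p under 0.05. No point is filled in 2-cell embryos, 3 are filled in morulae and 11 in blastocysts.

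Nuf2 was at 15.1, 15.7, 12.1 and 14.3 FPKM in control blastocysts 1, 4, 5 and 6 (mean 14.3, SD 1.56), and at 3.24, 5.35, 4.42 and 4.72 FPKM in KD 1, 4, 5 and 6 (mean 4.43, SD 0.885). Its partner Ndc80 was at 43.6, 44.8, 41.1 and 39.6 FPKM in controls and at 28.4, 25.5, 18.3 and 22.6 FPKM in KD. The KD libraries of both genes were below every control. Nuf2 fell (−1.49, SE 0.19, limma adjusted p 0.000126, lower in 4 of 4 KD libraries), and so did Ndc80 (−0.82, SE 0.20, limma adjusted p 0.00651, lower in 4 of 4). Both passed under each of the 15 alternatives (Nuf2 0.000103 to 0.00268, Ndc80 0.00212 to 0.0338). Cenpf, a large protein of the kinetochore corona, was at 6.64, 7.88, 4.97 and 5.53 FPKM in controls and at 2.93, 3.90, 3.31 and 4.58 FPKM in KD, again with no overlap. Cenpf fell (−0.62, SE 0.20, limma adjusted p 0.0281, lower in 4 of 4; range 0.0171 to 0.0853). It was lost without control 1 (0.0683), control 4 (0.0853), KD 1 (0.0708) or KD 5 (0.0683), and without the filter on low FPKM (0.0720).

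The checkpoint kinase Ttk was at 5.76, 9.17, 10.7 and 9.76 FPKM in control blastocysts and at 2.69, 2.81, 5.92 and 4.31 FPKM in KD. Bub1, the kinase that recruits other checkpoint proteins, was at 13.7, 15.7, 17.0 and 14.03 FPKM in controls and at 9.17, 9.65, 10.9 and 12.2 FPKM in KD. Every KD library was below every control for Bub1, while Ttk in KD 5 was above control 1. Ttk fell (−1.01, SE 0.21, limma adjusted p 0.0028, 3 of 4 KD libraries below every control) and passed under each of the 15 alternatives (0.00135 to 0.0189). Bub1 fell (−0.485, SE 0.15, limma adjusted p 0.0256, lower in 4 of 4; range 0.0189 to 0.0604) but not without control 4 (0.0604), control 5 (0.0568), KD 1 (0.0566) or KD 4 (0.0512). Top2a was at 40.8, 41.4, 38.9 and 34.4 FPKM in controls and at 18.4, 21.8, 16.9 and 23.4 FPKM in KD, so that its highest KD library was below its lowest control. It fell (−0.92, SE 0.18, limma adjusted p 0.00202, lower in 4 of 4) and passed under each of the 15 alternatives (0.000856 to 0.0128).

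Kif23, a kinesin of the central spindle that cytokinesis requires, was at 13.1, 15.2, 17.9 and 15.5 FPKM in control blastocysts and at 26.9, 28.9, 47.2 and 40.8 FPKM in KD. Cdc20 was at 96.5, 183, 195 and 127 FPKM in controls and at 269, 213, 230 and 238 FPKM in KD. No KD library of either gene overlapped the controls. Kif23 rose (1.15, SE 0.17, limma adjusted p 0.000358, higher in 4 of 4) and passed under each of the 15 alternatives (0.000317 to 0.00385). Cdc20 rose (0.71, SE 0.20, limma adjusted p 0.0146, higher in 4 of 4; range 0.0107 to 0.0627), though not without control 6 (0.0500) or without the filter on low FPKM (0.0627). Dsn1, of the complex that joins the outer kinetochore to the centromere, was at 13.9, 20.96, 17.4 and 15.1 FPKM in controls and at 23.6, 24.9, 21.9 and 24.9 FPKM in KD. Dsn1 rose (0.50, SE 0.17, limma adjusted p 0.0339, higher in 4 of 4; range 0.0176 to 0.105). Its call was lost without control 1 (0.0682), 5 (0.0695) or 6 (0.105), without KD 1 (0.0698), 4 (0.0782) or 6 (0.0812), and without the filter on low FPKM (0.0537).

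Aurka was at 140, 200, 205 and 169 FPKM in control blastocysts and at 247, 232, 240.0 and 253 FPKM in KD, all above the controls. Aurkc was at 2.03, 3.65, 2.19 and 1.91 FPKM in controls and at 4.64, 3.24, 6.79 and 5.40 FPKM in KD, with KD 4 below control 4. Aurka rose (0.46, SE 0.15, limma adjusted p 0.0289, higher in 4 of 4; range 0.0171 to 0.0908) but not without control 1 (0.0639), control 6 (0.0908), KD 1 (0.0665), KD 4 (0.0538) or KD 6 (0.0774). Aurkc rose (0.80, SE 0.21, limma adjusted p 0.00996, 3 of 4 KD libraries above every control) and passed under each of the 15 alternatives (0.00518 to 0.0413). Its transcripts share 54.8% of their 50-base windows with 10 other genes, of which Gm12463 had means of 0.358 FPKM in control and 0.444 FPKM in KD blastocysts, and Gm6909 (10.3% of windows) had 0 FPKM in control and 0.489 FPKM in KD blastocysts, so reads of these genes are hard to tell apart. Cdc20 shares 10.4% of its windows and Plk1 6.56%, and each other member shares less than 5%.

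**Figure D2:**
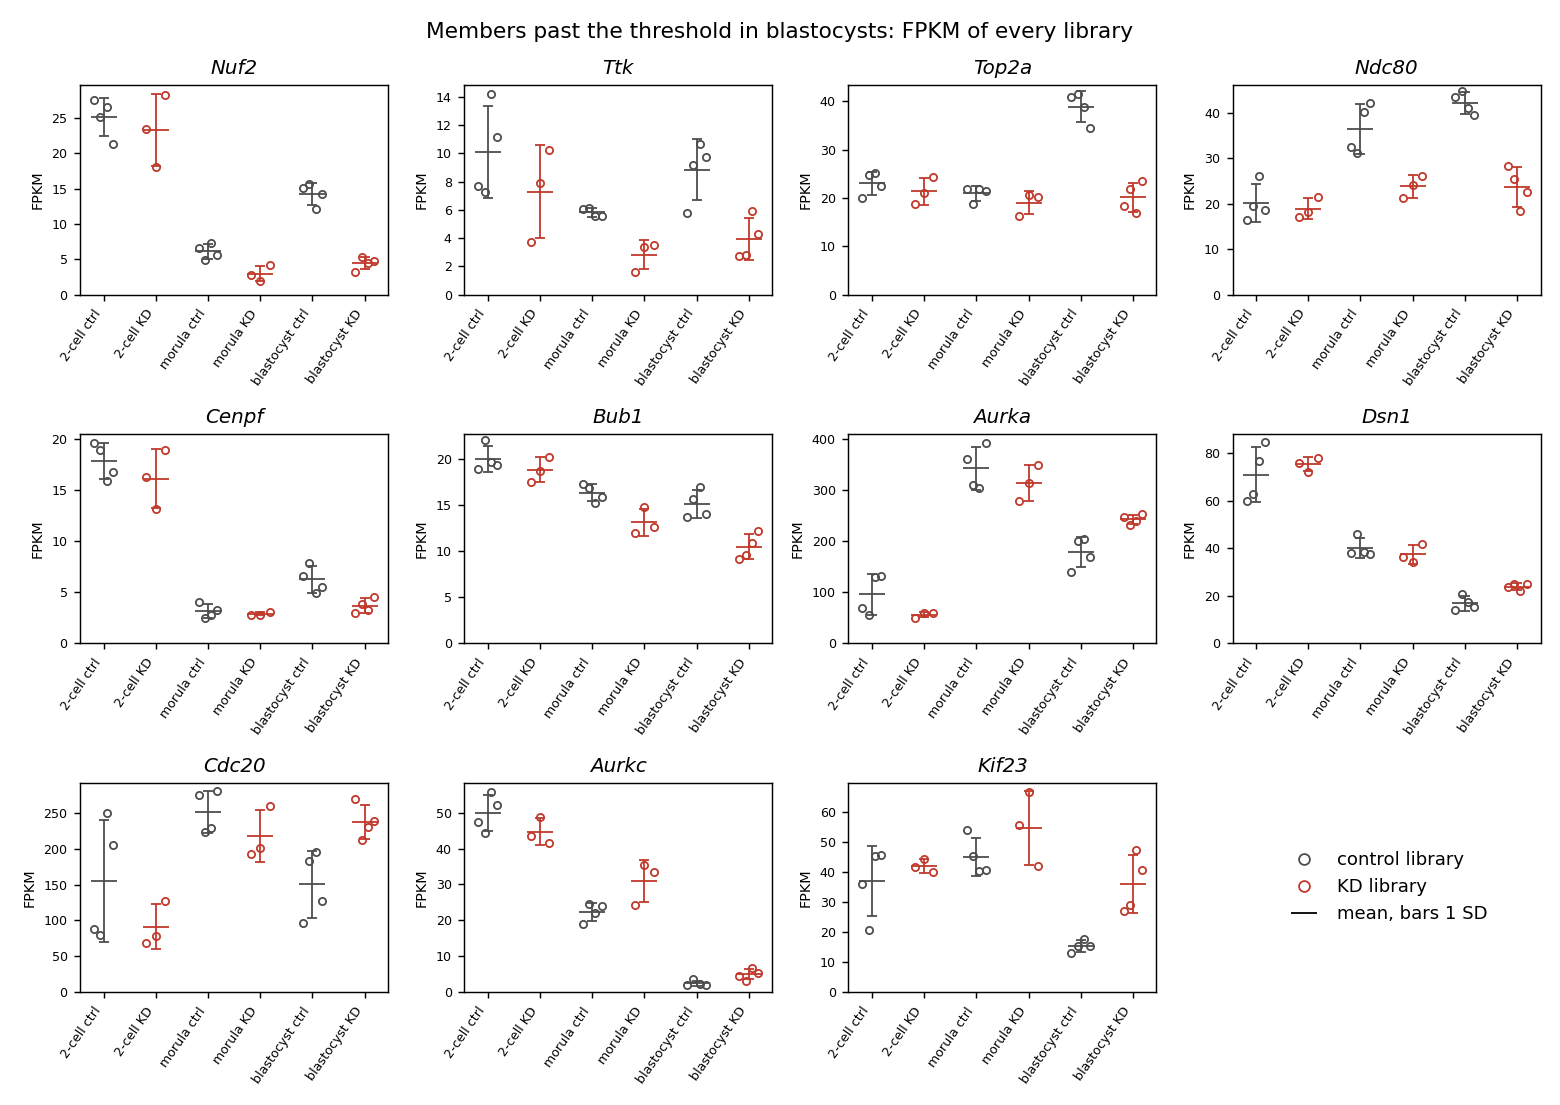
FPKM of the 11 members that passed in blastocysts, 1 point per library in control and KD groups of each stage, with the mean and standard deviation as bars. In blastocysts the 4 KD points of Nuf2 lie between 3.24 and 5.35 FPKM and those of Kif23 between 26.9 and 47.2 FPKM, outside the range of the controls.

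The third Aurora kinase, Aurkb of the passenger complex, was at 17.6, 27.1, 26.1 and 19.4 FPKM in control blastocysts and at 19.5, 22.1, 16.9 and 21.2 FPKM in KD (−0.15, limma adjusted p 0.557). Its partner Birc5 was at 655, 619, 571 and 595 FPKM in controls and at 530.3, 519, 439 and 486 FPKM in KD, and the scaffold Incenp at 2.57, 3.24, 2.58 and 2.72 FPKM in controls and 3.78, 3.29, 4.33 and 3.87 FPKM in KD. Both were without overlap in opposite directions and neither passed (Birc5 −0.30, limma adjusted p 0.197; Incenp 0.35, 0.0936). Plk1 was at 7.86, 15.3, 24.1 and 13.9 FPKM in controls and at 17.0, 14.6, 25.7 and 22.2 FPKM in KD (0.43, limma adjusted p 0.192; 0.0448 without control 5, range 0.0448 to 0.484). Pttg1 was at 512, 505, 198 and 314 FPKM in controls and at 188, 300, 141 and 208 FPKM in KD (−0.81, SE 0.35, limma adjusted p 0.0862). It passed without control 5 (0.0132), without KD 4 (0.0401) and with replicate number as a block (0.00682), with a range of 0.00682 to 0.286. Its KD library was below the control of the same number for each of the 4 numbers, though libraries that share a number were not shown to be paired. Both genes had overlapping groups and wide spread among controls.

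Of the remaining representatives in blastocysts, Cenpa was at 88.3, 103, 74.3 and 73.8 FPKM in controls and at 109, 93.9, 103 and 108 FPKM in KD (0.30, limma adjusted p 0.197). The checkpoint protein Mad2l1 was at 64.9, 60.2, 45.6 and 52.4 FPKM in controls and at 47.7, 47.0, 36.4 and 48.6 FPKM in KD (−0.30, limma adjusted p 0.277). Control and KD libraries of both genes overlapped. Smc4 (0.11, limma adjusted p 0.623) and Rad21 (0.21, 0.375) were each highest in KD 5, at 62.5 FPKM and 60.2 FPKM, with the other KD libraries among the controls. Bub1b of the checkpoint (−0.04, limma adjusted p 0.892), Cenpe (−0.06, 0.843), the bipolar spindle motor Kif11 (0.23, 0.296), Prc1 (−0.14, 0.564), Espl1 (0.20, 0.329) and the cohesin core gene Smc3 (−0.06, 0.794) also did not pass, and their groups overlapped. Named after their values were seen, Smc2 of condensin, Spc25 of the kinetochore and Stag2 of cohesin each passed only without some library or under some alternative. Smc2 (−0.39, limma adjusted p 0.0591, lower in 4 of 4) had 0.0403 without control 5, 0.0476 without the filter on low FPKM and a range of 0.0403 to 0.137. Spc25 (−0.65, limma adjusted p 0.129) had 0.0273 without KD 1, 0.0156 with replicate number as a block, 0.0355 with low against high numbers as a term, and a range of 0.0156 to 0.346. In blastocysts the low numbers are control 1 and KD 1 alone. Spc25 was at 177 FPKM in control 1 and 144 FPKM in KD 1, against means of 122 and 73.0 FPKM in the higher numbers. Stag2 was at 4.68 FPKM in KD 5 and between 18.2 and 22.4 FPKM in the other KD libraries, against 10.00 to 11.1 FPKM in controls (0.36, limma adjusted p 0.509; 0.00329 without KD 5, range 0.00329 to 0.849).

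Among the other pathway genes in KD blastocysts, 9 rose and 22 fell of 89 tested (34.8%), where 16.7% of all tested genes rose and 19.8% fell. These shares are the background for the counts by group that follow. The other centromere and kinetochore genes had 1 rise (Cenpm) and 13 falls among 25 (56.0%), with 23 of 25 lower and a median of −0.49. The libraries did not overlap for 15 of the 25, against 34.5% of all tested genes. Under upper quartile scaling 12 of the 25 fell, where 2272 of all 11828 tested genes fell. The anaphase-promoting complex had 4 rises and 2 falls among 17, other spindle and cytokinesis genes 2 and 7 among 24, other checkpoint genes 1 and 0 among 10, and other cohesin and condensin genes 1 and 0 among 13. Cenpk was at 46.3, 14.7, 15.1 and 13.2 FPKM in control blastocysts and at 6.16, 2.67, 2.23 and 1.38 FPKM in KD. Cenpp, in the same assembly of the inner kinetochore, was at 37.3, 27.3, 26.4 and 23.2 FPKM in controls and at 8.87, 9.24, 8.96 and 8.57 FPKM in KD. Ska2, which helps couple kinetochores to microtubules, was at 24.0, 20.4, 13.9 and 16.9 FPKM in controls and at 4.06, 7.27, 4.82 and 7.64 FPKM in KD. In each case all 4 KD libraries were below all controls. Cenpk fell (−2.42, limma adjusted p 0.00126; range 8.97e-06 to 0.0268), as did Cenpp (−1.55, 0.000139; 5.72e-05 to 0.00368) and Ska2 (−1.51, 0.000698; 0.000398 to 0.0128).

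The ubiquitin enzyme Ube2s, which works with the anaphase-promoting complex, was at 8.40, 19.2, 24.7 and 21.4 FPKM in control blastocysts and at 39.2, 27.4, 52.0 and 41.3 FPKM in KD. The centrosomal kinase Nek2 was at 4.97, 6.36, 6.56 and 7.19 FPKM in controls and at 11.2, 11.49, 16.8 and 13.6 FPKM in KD. Anapc7, a subunit of the anaphase-promoting complex, was at 2.09, 3.47, 4.62 and 4.86 FPKM in controls and at 6.09, 6.15, 13.1 and 8.12 FPKM in KD. All KD libraries were above all controls for each of these genes. Ube2s rose (1.14, limma adjusted p 0.00447; range 0.00275 to 0.0405), as did Nek2 (0.97, 0.000666; 0.00055 to 0.00324) and Anapc7 (0.97, 0.00615; 0.00248 to 0.0375).

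**Figure D3:**
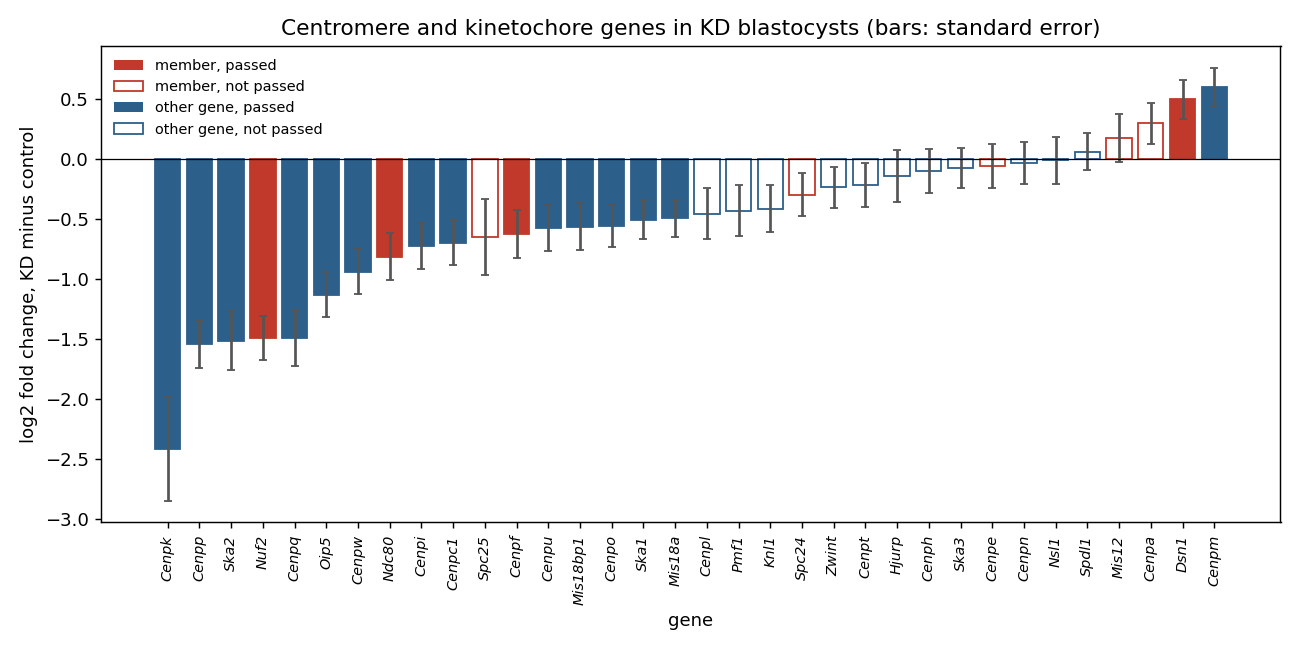
Log2 fold change (KD minus control, on log2(FPKM+1)) in blastocysts of 34 centromere and kinetochore genes, 9 members and 25 others; 1 bar per gene starting at 0, filled where the gene passed, with the standard error. Most bars lie below 0, with 6 of the 9 members and 23 of the 25 others lower in KD.

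The effects of KD in morulae and in blastocysts were compared directly for each gene. For most members the difference between them did not pass. The comparison uses the same libraries as the ones within each stage, so their calls are not independent.

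By the interaction term, 0 members had a higher and 2 a lower effect in blastocysts than in morulae (4.55% of members), where 11.7% of the 12727 tested genes passed in either direction. At an unadjusted p under 0.05 there were 13 members and 3480 genes in all. The median difference over the members was −0.035 (21 higher and 23 lower). For all genes the median was −0.0086, or 0.111 with FPKM as deposited, where 56.0% of the genes that passed had a higher effect against 46.2%. Top2a differed by −0.93 (SE 0.24, limma adjusted p 0.0174; range 0.0152 to 0.0541), with 0.0541 without morula KD 2. Smc2, named after its values were seen, differed by −0.69 (SE 0.18, limma adjusted p 0.0188; range 0.00816 to 0.0659), with 0.0659 on FPKM as deposited. For Top2a 4 of 4 KD blastocyst libraries and 1 of 3 KD morula libraries were below every control of their stage, and for Smc2 4 of 4 KD blastocyst libraries were below their controls and 2 of 3 KD morula libraries above theirs.

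For the other members named here, the difference between the stages did not pass. Kif23 differed by 0.72 (limma adjusted p 0.0504; range 0.0308 to 0.134). It passed without morula KD 2 (0.0308), blastocyst control 5 (0.0472), blastocyst KD 1 (0.0329) or blastocyst KD 4 (0.0395), and under 3 further alternatives. Cdc20 differed by 0.76 (limma adjusted p 0.0798; range 0.0367 to 0.194), with 0.0499 without morula KD 6 and 0.0423 without blastocyst control 5. Without blastocyst control 5 Plk1 (0.90, limma adjusted p 0.0945; 0.0237 without it, range 0.0237 to 0.244) and Cenpf (−0.67, limma adjusted p 0.0942; 0.0481 without it, range 0.0481 to 0.181) also passed. Without that library the counts were thus 3 higher and 3 lower (over all genes 866 and 856, against 691 and 804 with it). The number higher was 1 without morula KD 6, blastocyst KD 1 or blastocyst KD 4 (over all genes 574, 546 and 787). Without morula KD 2 the counts were 1 higher and 1 lower (over all genes 436 and 561). The differences for the rest were −0.75 for Nuf2 (limma adjusted p 0.1002), −0.26 for Ttk (0.628), −0.38 for Ndc80 (0.398), −0.34 for Bub1 (0.264), 0.42 for Aurka (0.210), 0.19 for Aurkc (0.722), 0.43 for Dsn1 (0.222) and −0.56 for Anln (0.131). Of the other pathway genes, 3 had a higher and 6 a lower effect in blastocysts (10.1% of 89 tested, against 11.7% of all tested genes); of the genes named above by the rule these were Knl1 (−1.03, limma adjusted p 0.0148), Cenpp (−1.05, limma adjusted p 0.0127), Ska2 (−1.17, 0.0305), Ube2s (1.44, 0.0125) and Nek2 (0.97, 0.00708).

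Across the stages of control embryos, most members passed between 2-cell embryos and morulae, as did most tested genes. More members fell than rose at that step, except under upper quartile scaling. Between morulae and blastocysts equal numbers rose and fell, with more falls under upper quartile scaling. These comparisons share the control morulae with each other and all their libraries with the KD comparisons, so the values stand side by side only.

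From 2-cell embryos to morulae 11 members rose where 40.6% of the 14686 tested genes rose, and 24 fell where 40.4% fell. Thus 79.5% of members passed, with a median log2 fold change of −0.52 (16 higher and 28 lower). The median absolute log2 fold change was 0.836, against 1.19 over all tested genes. Over all genes that median was 0.0278, but 0.138 with FPKM as deposited and 0.357 with upper quartile scaling. Under these scalings 12 members rose and 21 fell (median −0.36), and 17 rose and 17 fell (median −0.020), where 6263 and 5575, then 7095 and 5024, of all 14686 tested genes rose and fell. The share of rises among all genes that passed was 50.1%, and 58.5% with upper quartile scaling. The counts of members that fell and rose at this step thus moved with the scaling. Under each scaling the median of the members was below that of all genes.

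Among control 2-cell embryos Nuf2 was at 27.5, 25.1, 26.6 and 21.4 FPKM, and among control morulae at 6.57, 4.91, 7.35 and 5.64 FPKM. Cenpf was at 19.6, 18.9, 15.9 and 16.8 FPKM and then at 4.03, 2.50, 2.80 and 3.26 FPKM. Spc25, named after its values were seen, was at 243, 173, 230 and 290 FPKM and then at 48.9, 63.7, 69.8 and 54.9 FPKM. For each of them every morula library was below every 2-cell library. Nuf2 (−2.04, limma adjusted p 3.48e-08), Cenpf (−2.33, 1.66e-08) and Spc25 (−2.12, 3.68e-07) fell and passed under each of the 18 alternatives. In the other direction Aurka rose from the 2-cell values given above to between 305 and 393 FPKM (1.74, limma adjusted p 2.69e-06; range 2.34e-07 to 5.83e-05). Spc24, the partner of Spc25, also named after its values were seen, went from 5.39, 5.83, 5.90 and 5.06 FPKM to 37.7, 36.6, 32.1 and 33.9 FPKM (2.30, limma adjusted p 1.94e-09; range 2.90e-10 to 8.82e-06).

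From morulae to blastocysts 12 members rose where 24.3% of the tested genes rose, and 12 fell where 21.7% fell, so that 54.5% passed. The median was −0.083 (all genes −0.0010) with 21 higher and 23 lower, with replicate number as a block it was 0.092 (all genes 0.081), and with upper quartile scaling it was −0.190, with 9 that rose and 15 that fell (3219 and 3775 of all 14686 tested genes). Aurkc went from 18.9, 24.5, 22.0 and 23.9 FPKM to 2.03, 3.65, 2.19 and 1.91 FPKM (−2.76, limma adjusted p 1.29e-08; range 1.37e-08 to 0.000129). Kif23 went from 54.0, 45.2, 40.5 and 40.7 FPKM to 13.1, 15.2, 17.9 and 15.5 FPKM (−1.49, limma adjusted p 1.23e-05; range 5.64e-07 to 0.000484). Each blastocyst library was below each morula library for these genes. Dsn1 (−1.22, limma adjusted p 9.80e-06) and Aurka (−0.95, limma adjusted p 0.00212) also fell, and Nuf2 (1.09, limma adjusted p 0.000102), Top2a (0.85, limma adjusted p 0.000223) and Pttg1 (1.12, limma adjusted p 0.00573) rose. Each of these passed under each of the 18 alternatives.

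Markers of stage and cell type were read beside the members. All 10 blastocyst markers were above 0 in the blastocyst libraries, and 7 to 8 were at 1 FPKM or more; Gata4 was at 0.03 to 0.10 FPKM. Their summed level was 1101, 1596, 1508 and 1115 FPKM in control and 713, 881, 1038 and 784 FPKM in KD blastocysts, with Krt18 the most abundant. Krt18 was at 730.2, 992, 827 and 646 FPKM in controls and at 369, 461, 399 and 329 FPKM in KD (−1.02, limma adjusted p 0.00126), and Tfap2c rose (0.96, limma adjusted p 0.00674), the passing ones among 8 tested. In morulae the same sum was 220, 220, 253 and 298 FPKM in controls and 122, 104 and 159 FPKM in KD, with Nanog at 62.9, 103, 113 and 143 FPKM against 17.9, 11.6 and 32.5 FPKM (−2.23, limma adjusted p 0.00647; 1 fell of 6 tested). The KD libraries at both stages thus had lower sums than every control, though of the 8 markers tested in blastocysts 4 were higher and 4 lower in KD (median −0.07), and the lower sum there rests largely on Krt18. The 5 markers of 2-cell embryos summed to 1.34, 2.54, 0.540 and 1.88 FPKM in control and 8.10, 17.5, 3.43 and 25.3 FPKM in KD blastocysts, led by Tcstv3 except for Zfp352 in KD 5; the 2 that were tested rose, and Zscan4d was at 0 in controls 4 and 5 and Zscan4c in control 5. The 8 cumulus and granulosa markers summed to 3.87 to 6.40 FPKM in morulae and blastocysts, with only Amhr2 at 1 FPKM or more, and to 6.58 to 18.4 FPKM in 2-cell embryos. The 7 oocyte mRNAs summed to 753 to 1049 FPKM in 2-cell embryos (led by Oosp1), 5.31 to 11.1 FPKM in morulae (led by Zp3) and 1.90 to 6.20 FPKM in blastocysts. Whether stage or composition bears on the members was not tested.

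The genes named next are given by their coordinates on GRCm38 in GENCODE M21, all as protein-coding genes. Nuf2 (ENSMUSG00000026683.14) lies at chr1:169497934-169531464 on the minus strand, Ndc80 (ENSMUSG00000024056.10) at chr17:71496100-71526857 on the minus strand, Ttk (ENSMUSG00000038379.15) at chr9:83834689-83872389 on the plus strand and Kif23 (ENSMUSG00000032254.10) at chr9:61915905-61946774 on the minus strand. Top2a (ENSMUSG00000020914.17) lies at chr11:98992943-99024189 on the minus strand and Cdc20 (ENSMUSG00000006398.15) at chr4:118432901-118437352 on the minus strand. Exons of genes on the other strand cover 29.3% of Kif20a (Cdc23), 15.1% of Kif4 (Pdzd11), 13.4% of Ncapg (Lcorl), 11.1% of Prc1 (Rccd1), 7.69% of Mis12 (Derl2) and 7.09% of Plk1 (Gm44985), together with 4.48% of Cdca8 (9930104L06Rik) and 2.84% of Cdc20 (Elovl1). The library method keeps no strand, so reads in those stretches cannot be assigned to a strand.

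Promoters of mitotic genes often carry a cell cycle genes homology region, written TTTGAA or TTCGAA, and CCAAT boxes; these letters were searched on both strands of RefSeq promoter windows of GRCm38.p6. Windows exist for 36 of the 44 members (39 windows). TTTGAA or TTCGAA occurs in 69.2% of the member windows and in 19.2% of all 32851 windows, CCAAT in 74.4% and 37.4%, and both in 61.5% and 7.52%. By gene these are 24, 26 and 21 of the 36 members. A match is a description, not a site or a cause. The windows of 4 members that passed in blastocysts are given because their letters differ: Kif23 (chr9:61946750-61947049, minus strand), Ndc80 (chr17:71526808-71527107, minus strand), Nuf2 (chr1:169531415-169531714, minus strand) and Ttk (chr9:83834439-83834738, plus strand). Each is written 5′ to 3′ on the strand of its gene, and capitals mark the matches (TTCAAA and ATTGG are TTTGAA and CCAAT on the reverse strand). Kif23 has TTTGAA from base 2 and CCAAT on the reverse strand from −7, where base 0 is the RefSeq start. Ndc80 has TTTGAA on the reverse strand from 29, and Ttk has it on the reverse strand from 7 with CCAAT from −65 and −28. Nuf2 has none of these letters.
Kif23: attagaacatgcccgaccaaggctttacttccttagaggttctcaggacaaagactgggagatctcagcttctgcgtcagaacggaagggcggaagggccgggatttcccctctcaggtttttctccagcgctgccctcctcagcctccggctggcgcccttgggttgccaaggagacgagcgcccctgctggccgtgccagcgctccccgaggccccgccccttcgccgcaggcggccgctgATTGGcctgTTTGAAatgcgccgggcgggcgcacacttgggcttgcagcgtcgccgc
Ndc80: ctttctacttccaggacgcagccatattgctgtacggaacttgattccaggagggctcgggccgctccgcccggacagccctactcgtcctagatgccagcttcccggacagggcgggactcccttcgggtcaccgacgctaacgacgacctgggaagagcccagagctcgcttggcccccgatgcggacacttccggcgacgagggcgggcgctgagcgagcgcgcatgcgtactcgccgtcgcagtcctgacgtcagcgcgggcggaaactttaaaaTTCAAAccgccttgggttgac
Nuf2: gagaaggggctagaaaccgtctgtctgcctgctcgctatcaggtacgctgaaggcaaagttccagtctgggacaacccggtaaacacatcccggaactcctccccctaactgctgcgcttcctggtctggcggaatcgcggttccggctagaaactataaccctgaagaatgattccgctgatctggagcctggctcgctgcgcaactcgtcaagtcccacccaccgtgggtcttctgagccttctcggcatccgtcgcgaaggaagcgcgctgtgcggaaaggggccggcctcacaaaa
Ttk: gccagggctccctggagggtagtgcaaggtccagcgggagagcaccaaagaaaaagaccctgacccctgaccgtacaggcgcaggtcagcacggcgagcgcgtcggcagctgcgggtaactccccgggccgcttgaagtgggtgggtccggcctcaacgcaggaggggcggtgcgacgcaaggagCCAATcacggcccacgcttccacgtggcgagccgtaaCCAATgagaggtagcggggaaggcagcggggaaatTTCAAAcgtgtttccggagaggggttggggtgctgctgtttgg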

How the data were processed

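RNA was sequenced by the authors from 22 libraries of 15 whole embryos each (Smart-seq2, paired-end, not strand-specific). Per the labels, reads were aligned with STAR to mm10 and the authors computed the deposited values, in FPKM, with StringTie 2.1.4; they used featureCounts 1.6.2 and DESeq2 1.30.1 for tests on counts, which are not used here. All value columns were matched to a library (0 unmatched). Libraries were grouped by stage and treatment from the labels. With R 4.3.3 and limma 3.58.1 (lmFit, eBayes with trend), KD was compared with control within each stage on log2(FPKM divided by a median-of-ratios factor, plus 1), for genes at 1 FPKM or more in at least 3 libraries. Control stages and the interaction of KD with stage were fitted likewise. Adjusted p is Benjamini-Hochberg over all tested genes; a gene passes under 0.05, and a DEG also has an absolute log2 fold change above 1. The procedure was tested on simulated data with noise drawn independently for each library. That test does not cover effects that libraries share, or shifts as small as those of most members. Tables and figures used Python 3.11.15, numpy 2.4.6, pandas 2.3.3 and matplotlib 3.10.9.

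The members and lists were chosen with earlier results of these data known. The rule for named genes and the alternatives were set before the data were examined here. Named were, at each stage, up to 8 members that passed with no overlap between groups, by size; up to 3 other pathway genes in each direction by the same rule; 20 fixed representatives; H2afz and H2afv. The alternatives were a pseudocount of 0.1, no filter, FPKM as deposited, upper quartile scaling, robust eBayes without trend, leaving out each library, replicate number as a block, and low against high replicate numbers as a term. The last was fitted for KD within stages only, and the interaction was not fitted with robust eBayes or with either replicate term. With the block, a library whose number no other library of the fit shares does not bear on the contrast. In blastocysts the low numbers are replicate 1 alone, with 1 control and 1 KD library. Gene models are GENCODE M21, in which 54587 of the 55335 table IDs have the same version; promoter windows are from RefSeq.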

Additional observations from a re-analysis of the deposited data

Results flagged for a closer look

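In groups of 4 libraries, the highest or lowest library was compared with the range of the others for 39 named genes (156 groups). A library stood apart in 8 of the 156 groups, which is near the rate of about 1 in 20 that chance gives. The library above the others was control 1 for Cenpk in blastocysts (46.28 FPKM, others 13.18 to 15.14) and control 2 for Dsn1 in morulae (46.24, others 37.59 to 38.28). It was control 4 for Aurkc in blastocysts (3.649, others 1.908 to 2.187) and control 5 for Cenpe in 2-cell embryos (40.25, others 34.2 to 34.95). In blastocysts it was KD 5 for both Smc4 (62.53, others 45.74 to 47.83) and Rad21 (60.15, others 36.35 to 39.31). The library below the others was control 2 for Top2a in morulae (18.64 FPKM, others 21.38 to 21.93) and KD 5 for Mad2l1 in blastocysts (36.43, others 46.98 to 48.56). The effect of KD differed between blastocysts and morulae by an interaction term for Top2a (log2 difference −0.9346, limma adjusted p 0.0174) and Smc2 (−0.6916, limma adjusted p 0.0188).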

How the results depend on the processing

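No named gene that passed changed direction under any alternative. For single named genes, 2340 values stayed on the same side of the threshold, 28 newly passed and 83 no longer passed. For the following values the cause was not tested. Without the filter on low FPKM, 0 members rose and 0 fell in morulae (129 and 283 of all 32900 genes), and 3 rose in blastocysts (1798 of all 34540). With a pseudocount of 0.1 there were 2 upregulated DEGs in blastocysts. The interaction was then higher for 1 member, where 729 of all 12727 genes were higher and 580 lower. With FPKM as deposited, 0 rose and 5 fell in morulae (median −0.1087), and the median from 2-cell embryos to morulae was −0.3552. The interaction as deposited was higher for 2 and lower for 1 (894 and 703 of all 12727 genes). With upper quartile scaling 0 fell in morulae, 17 rose from 2-cell embryos to morulae (median −0.01987), and the median from morulae to blastocysts was −0.1895. Under that scaling 1 had a higher interaction, where 640 of all 12727 genes were higher and 742 lower. With low against high replicate numbers as a term, 5 rose and 5 fell in morulae. Leaving out each library gave medians of −0.085 to 0.0137 in 2-cell embryos, −0.0993 to 0.0478 in morulae, −0.0540 to 0.0122 in blastocysts, −0.5735 to −0.4572 from 2-cell embryos to morulae and −0.0923 to −0.0187 from morulae to blastocysts. The counts that rose and fell were 0 to 0 and 0 to 0 in 2-cell embryos, 0 to 1 and 0 to 3 in morulae, 2 to 6 and 4 to 7 in blastocysts, 8 to 11 and 23 to 25 from 2-cell embryos to morulae, 9 to 12 and 9 to 14 from morulae to blastocysts, and 0 to 3 and 1 to 3 for the interaction. Downregulated DEGs numbered 0 to 1 in morulae and 1 to 2 in blastocysts, and upregulated DEGs 1 to 1 in blastocysts.

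Libraries that share a replicate number were not shown to be paired: 5 of 6 libraries in 2-cell embryos, 2 of 4 in morulae and 3 of 8 in blastocysts were most alike, across genes, to the library with their own number. Likeness here is the correlation across genes of deviations from the group mean, not of levels. Deviations cancel out within a group, so negative values arise by construction. In morulae, control and KD libraries within the lower or within the higher numbers had such correlations of 0.0944 to 0.347. Between lower and higher numbers the morula correlations were −0.278 to −0.0946. With replicate number as a block, 0 members passed in 2-cell embryos. In morulae 5 passed with it (Plk1, Ttk, Cenpe, Nuf2 and Stag2), of which 2 rose. Of these 5, Ttk and Nuf2, which fell, also passed without the block, while Anln no longer passed with it. Only morula libraries 1 and 2 of each group share a number, so libraries 6, 7 and 8 do not bear on the KD effect there. Stag2 rose with the block, with lower-number means of 15.7 FPKM in control and 23.5 FPKM in KD morulae. Among the higher numbers its means were 14.2 FPKM in control and 12.1 FPKM in KD. In blastocysts 13 passed with the block, among them all 11 that passed without it. Over all genes, calls went from 1458 to 1624 in morulae and from 4321 to 4571 in blastocysts. The median from morulae to blastocysts changed sign to 0.09214 with the block, where that of all genes moved from −0.0010 to 0.081. Morula controls 7 and 8 and blastocyst control 6 share their number with no other control library, so they do not bear on that fit. Whether a number means the same across stages is not stated, and the cause of the change was not tested.

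FPKM carry no counts, so no counting interval can be given and genes at low FPKM cannot be weighed by depth. Steps in the values of single-exon genes give a rough relative depth with medians between 17.9 in control blastocysts and 25.3 in control 2-cell embryos, a weak estimate since 8.86% to 19.7% of low values lie on whole steps (tolerance 0.02). Members near 1 FPKM, such as Espl1, are measured least well. Bulk pools do not separate cell types, levels are relative within a library, and protein was not measured in these files.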
